A study of Mus musculus with 4 samples.

Results

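Transcripts of antigen presentation by the major histocompatibility complex (MHC) were followed in sorted mouse β cells as 10 genes, chosen by symbol from a table of 51912 genes. Of these, 5 belong to the class I pathway (H2-K1, H2-D1, B2m, Tap1 and Nlrc5) and 5 to the class II pathway (Cd74, H2-Aa, H2-Ab1, H2-Eb1 and Ciita). Pancreatic β cells of neonatal mice at day 13 were compared between 2 control libraries (Robo1+/+; Robo2+/+) and 2 Robo mutant libraries (Robo1delta/delta; Robo2flx/flx). Every mouse line also carried Ucn3-Cre/+ and Rosa26-lsl-H2B-mCherry/+, and cells were sorted for mCherry, so reporter and Cre are common to both genotypes. Ucn3, whose gene drives the Cre, is made by β cells as they mature. The Robo1 allele is named as deleted rather than conditional, so its loss need not be limited to the sorted cells. The sources used here state neither the strain nor the number of animals nor whether animals were pooled. If the libraries are not from separate animals, their spread is technical, and p-values measure no more than that spread.

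MHC class I molecules are made by nearly all nucleated cells. A heavy chain, encoded by H2-K1 or H2-D1, pairs with the light chain β2-microglobulin (B2m) and displays peptides that the Tap1 and Tap2 transporter carries into the endoplasmic reticulum. Class II molecules are made mainly by macrophages, dendritic cells and B lymphocytes. There an α chain and a β chain assemble with the invariant chain Cd74, which guides them to endosomes. H2-Aa encodes the α chain that pairs with the β chain of H2-Ab1, while the β chain of H2-Eb1 has a different α chain partner. Nlrc5 and Ciita are coactivators without DNA binding of their own, Nlrc5 for class I genes and Ciita for class II genes. Both act through the RFX, CREB and NF-Y factors on a promoter module whose last element, the Y box, reads CCAAT. Interferon gamma is a known inducer of both pathways, and class I on β cells is studied in autoimmune diabetes.

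RefSeq promoter windows (GRCm38.p6) matched 6 of the 10 genes, namely H2-K1, H2-D1, B2m, Tap1, H2-Aa and H2-Eb1. The 200 bases before the annotated start are shown for a class I heavy chain, the light chain and a pair of class II chains, because these genes share the promoter module but were measured at very different levels. They lie at chr17:34000348-34000547 (minus strand), chr2:122147487-122147686 (plus), chr17:34287824-34288023 (minus) and chr17:34305667-34305866 (plus), and each is written 5′ to 3′. Capitals mark matches on either strand to 4 motifs, the Y box core CCAAT, the cyclic AMP element core TGACG, the interferon response core TTTCNNTTC and the κB core GGGGATTCC, and in H2-Aa matches to TGACG on both strands overlap.
H2-K1: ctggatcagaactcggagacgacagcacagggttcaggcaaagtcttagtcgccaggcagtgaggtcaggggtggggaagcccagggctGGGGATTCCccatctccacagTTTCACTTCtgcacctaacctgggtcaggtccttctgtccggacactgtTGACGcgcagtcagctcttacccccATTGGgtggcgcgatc
B2m: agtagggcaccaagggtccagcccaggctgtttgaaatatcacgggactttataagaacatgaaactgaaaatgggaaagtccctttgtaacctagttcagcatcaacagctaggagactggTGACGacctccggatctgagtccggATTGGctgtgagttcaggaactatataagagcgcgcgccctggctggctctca
H2-Aa: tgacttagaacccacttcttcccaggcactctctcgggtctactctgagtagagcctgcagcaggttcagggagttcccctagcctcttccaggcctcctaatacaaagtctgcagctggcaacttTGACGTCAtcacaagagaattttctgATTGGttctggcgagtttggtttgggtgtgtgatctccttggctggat
H2-Eb1: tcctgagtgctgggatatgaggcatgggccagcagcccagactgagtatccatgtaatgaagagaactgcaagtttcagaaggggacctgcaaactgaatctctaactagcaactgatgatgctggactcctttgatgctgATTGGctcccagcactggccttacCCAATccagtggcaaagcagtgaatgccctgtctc

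In H2-K1, H2-D1 and B2m, TGACG began 25 bases before a Y box core, and in H2-Aa the overlapping pair began 26 and 23 bases before it. H2-Eb1 held Y box cores in the 250 bases searched but no TGACG. The interferon response core and the κB core were matched in H2-K1 and H2-D1 and not in B2m, Tap1, H2-Aa or H2-Eb1. Among all 32851 promoter windows searched over the same length, 33.8% held CCAAT, 17.8% TGACG, 6.31% TTTCNNTTC and 0.213% GGGGATTCC. A match describes letters and not a bound site.

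Library totals ran from 38886129 to 49593712 counts. Robo1 was at 48.5 and 104 CPM (counts scaled to the size of each library) in control 1 and control 2 and at 22.29 and 21.02 CPM in Robo mutant 1 and Robo mutant 2. Robo2 was at 75.3 and 118 CPM in the controls and at 32.7 and 25.6 CPM in the mutants. The 10 β-cell markers, insulin genes among them, took 15.25% to 22.97% of counts in each library, so the labelled cell type was present. Transcripts of other cells were present too, and 12 acinar markers together ran from 509 CPM in control 2 to 44540 CPM in Robo mutant 2. In such bulk samples, fewer cells of a type and less RNA per cell cannot be told apart.

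Class I heavy chain transcripts were plentiful in all 4 libraries, and class II transcripts were low and uneven. H2-K1 was 1.16-fold and H2-D1 1.15-fold higher in the mutant libraries, a difference that did not pass the test. Class II genes differed more between libraries of 1 genotype than between genotypes. Of the 10 genes, 9 passed the filter of at least 10 counts in at least 2 libraries. By edgeR's quasi-likelihood test 0 of these 9 had an adjusted p under 0.05, as had 0% of the 16517 genes tested, whose smallest adjusted p was 0.680. At an unadjusted p under 0.05 the members counted 0 of 9, beside 6.21% of all genes tested. DESeq2 called 0 of 9 members and 0.914% of all genes. The targeted genes Robo1 and Robo2, with log2 changes of -1.82 and -1.73, did not pass in edgeR either (adjusted p = 0.680 for each). DESeq2 called both (adjusted p = 0.00186 and 1.99e-05). A gene that edgeR did not call here is therefore not shown to be unchanged. With 2 libraries a genotype, an exact two-sided permutation test of a single gene cannot go below p = 0.33.

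**Figure D1:**
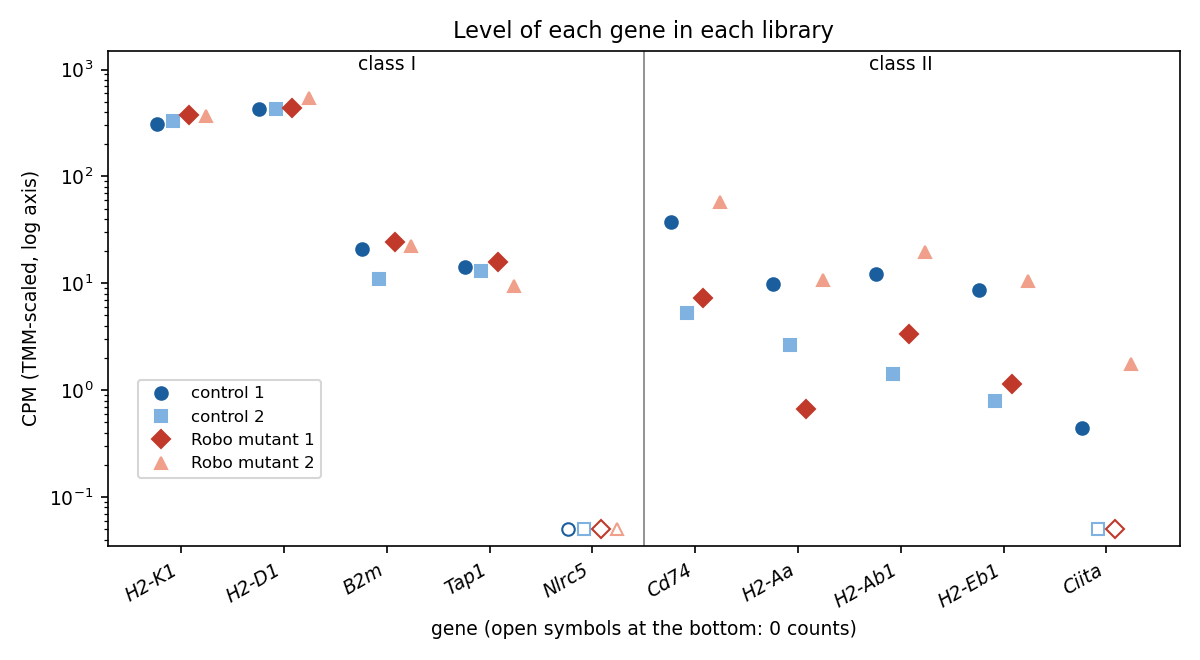
Level of each of the 10 genes in each of the 4 libraries, in CPM scaled by TMM factors on a log axis. H2-K1 and H2-D1 lie between 307 and 544 CPM in every library, the class II genes split into 2 high libraries (control 1 and Robo mutant 2) and 2 low ones, and open symbols at the bottom edge stand for 0 counts.

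The classical heavy chain gene H2-K1 (ENSMUSG00000061232, chromosome 17, 33996017 to 34000347, GRCm38) stood at 307 and 333 CPM in the controls and at 374 and 367 CPM in the mutants. Both mutant libraries lay above both controls. The log2 change came to 0.21 ± 0.13 (SE, 95% interval -0.13 to 0.56, edgeR adjusted p = 0.931). DESeq2 gave it an unadjusted p of 0.0452 and an adjusted p of 0.661.

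H2-D1, the second classical heavy chain gene (ENSMUSG00000073411, chromosome 17, 35262730 to 35267499), stood at 424 and 429 CPM in the controls and at 440 and 544 CPM in the mutants. The controls were close together and Robo mutant 2 was the highest, while Robo mutant 1 exceeded control 2 only slightly. Its log2 change was 0.21 ± 0.16 (SE, interval -0.23 to 0.64, edgeR adjusted p = 0.981), and without Robo mutant 2 it was 0.05. Stretches of 50 bases that also occur in transcripts of other genes made up 8.79% of the longest coding H2-K1 transcript and 14.3% of that of H2-D1, shared with each other and with H2-Q and H2-T genes. Reads there can be divided between genes, which makes the single heavy chain values uncertain. H2 genes vary strongly between mouse strains, and the reference is that of C57BL/6J.

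B2m (ENSMUSG00000060802, chromosome 2, 122147686 to 122153083), the light chain of every class I molecule, stood at 20.9 and 11.1 CPM in the controls and at 24.4 and 22.5 CPM in the mutants. Control 2 was the low library, and the other 3 lay within a narrow band. The log2 change was 0.55 ± 0.37 (SE, interval -0.42 to 1.53, edgeR adjusted p = 0.952), 0.17 without control 2 and 1.08 without control 1. Both mutant libraries lay above both controls for H2-K1, H2-D1 and B2m, 3 of the 9 tested members, as for 16.1% of all genes tested. No member had both mutant libraries below both controls, a pattern of 20.4% of genes.

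Tap1 (ENSMUSG00000037321, chromosome 17, 34187553 to 34197225), a subunit of the peptide transporter, stood at 14.3 and 12.9 CPM in the controls and at 15.9 and 9.48 CPM in the mutants. The mutant libraries lay on either side of the controls, with a log2 change of -0.10 ± 0.35 (SE, edgeR adjusted p = 1.00). Of its transcript, 6.47% of 50-base stretches occur in other genes, chiefly Psmb9, whose exons overlap it on the opposite strand. Library chemistry did not mark the strand, so reads of the overlap cannot be assigned. Nlrc5 (ENSMUSG00000074151, chromosome 8, 94434356 to 94527272), the class I coactivator gene, had 0 counts in every library. If its reads could be counted, a count of 0 allows up to 3 counts each, or 0.06 to 0.0736 CPM. Whether the authors' annotation or a filter kept reads of Nlrc5 out of the table is not known here, so the 0 is a listed value and not a measure of low expression.

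Per kilobase of merged exon, the mean levels of the class I genes over 4 libraries ran in the order H2-D1 (178 CPM per kb), H2-K1 (118), B2m (22.9) and Tap1 (2.40). On this scale the 4 values of H2-K1 all lay below those of H2-D1, but per kilobase of the longest coding transcript the means were 213 and 218 CPM and the values overlapped. The gaps from H2-K1 to B2m and from B2m to Tap1 exceeded the spread between libraries. The heavy chains H2-K1 and H2-D1 together exceeded B2m 11.0-fold and 21.7-fold per kb in control 1 and control 2, and 10.5-fold and 12.8-fold in Robo mutant 1 and Robo mutant 2. On this scale the light chain transcript, which serves all heavy chains, was the lower in all 4 libraries. How evenly these libraries recover transcripts of different genes was not tested, and shared stretches make the heavy chain values uncertain.

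Class II transcripts were high in control 1 and Robo mutant 2 and low in control 2 and Robo mutant 1. Cd74 (ENSMUSG00000024610, chromosome 18, 60803848 to 60812652), the invariant chain gene, stood at 37.4 and 5.28 CPM in the controls and at 7.26 and 57.8 CPM in the mutants. Each genotype thus held a high and a low library, and the genotypes overlapped fully. Cd74 was 7.09-fold higher in control 1 than in control 2 and 7.95-fold higher in Robo mutant 2 than in Robo mutant 1, with exact 95% intervals from counting error alone of 6.15 to 8.20 and 7.12 to 8.90. Its log2 change between genotypes was 0.61 ± 1.29 (SE, interval -2.82 to 4.03, edgeR adjusted p = 1.00).

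H2-Ab1 (chromosome 17, 34257689 to 34269419), a β chain gene, repeated this order at 12.1 and 1.42 CPM in the controls and 3.34 and 19.8 CPM in the mutants. Its log2 change was 0.77 ± 1.29 (SE, edgeR adjusted p = 1.00). H2-Eb1 (chromosome 17, 34305867 to 34316674), the β chain gene of the other class II isotype, stood at 8.73 and 0.785 CPM in the controls and 1.14 and 10.6 CPM in the mutants, with a log2 change of 0.30 ± 1.49. The gene of its α chain partner, listed as the pseudogene H2-Ea-ps, had 0 counts in every library.

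H2-Aa (chromosome 17, 34282744 to 34287823), the α chain gene that pairs with H2-Ab1, stood at 9.86 and 2.63 CPM in the controls and 0.660 and 10.7 CPM in the mutants. Robo mutant 1, and not control 2, was its lowest library, unlike Cd74, H2-Ab1 and H2-Eb1. Its log2 change was -0.13 ± 1.38 (SE, interval -3.81 to 3.55, edgeR adjusted p = 1.00). Ciita (ENSMUSG00000022504, chromosome 16, 10480059 to 10528418), the class II coactivator gene, had 21 counts in control 1, 80 in Robo mutant 2 and 0 in both other libraries. It was therefore detected in the same libraries in which the chains were high. Ciita passed the filter only through control 1 and Robo mutant 2, so the filter fixed its pattern as a tested gene. Exons of Dexi overlap those of Ciita on the opposite strand over 329 bases, out of 9535 merged exon bases of Ciita. Of the 50-base stretches of the longest coding Ciita transcript, 0.269% occur in Dexi. Reads of the overlap cannot be assigned. Robo1 and Robo2 lie on chromosome 16 as well.

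Against each other, the chains kept a rough proportion in the libraries with most counts. For every 100 Cd74 counts there were 32.4 and 34.4 H2-Ab1 counts in control 1 and Robo mutant 2, and 23.3 and 18.4 H2-Eb1 counts. H2-Aa made up 26.4 and 18.6 per 100 there, but 49.8 in control 2 and 9.09 in Robo mutant 1, where 107 and 33 counts support it. Per kilobase of merged exon, the class II order over 4 libraries was Cd74 (16.03 CPM per kb), H2-Ab1 (3.58), H2-Eb1 (2.73), H2-Aa (1.57) and Ciita (0.0576). Across libraries the spread exceeded the gaps between neighbouring chains. Within each of the 4 libraries, however, Cd74 came first and H2-Ab1 lay above H2-Eb1. H2-Aa was the lowest of the chains except in control 2, where at 0.691 CPM per kb it lay above H2-Ab1 at 0.554. On the longest coding transcript H2-Aa (5.29) came before H2-Eb1 (3.18).

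**Figure D2:**
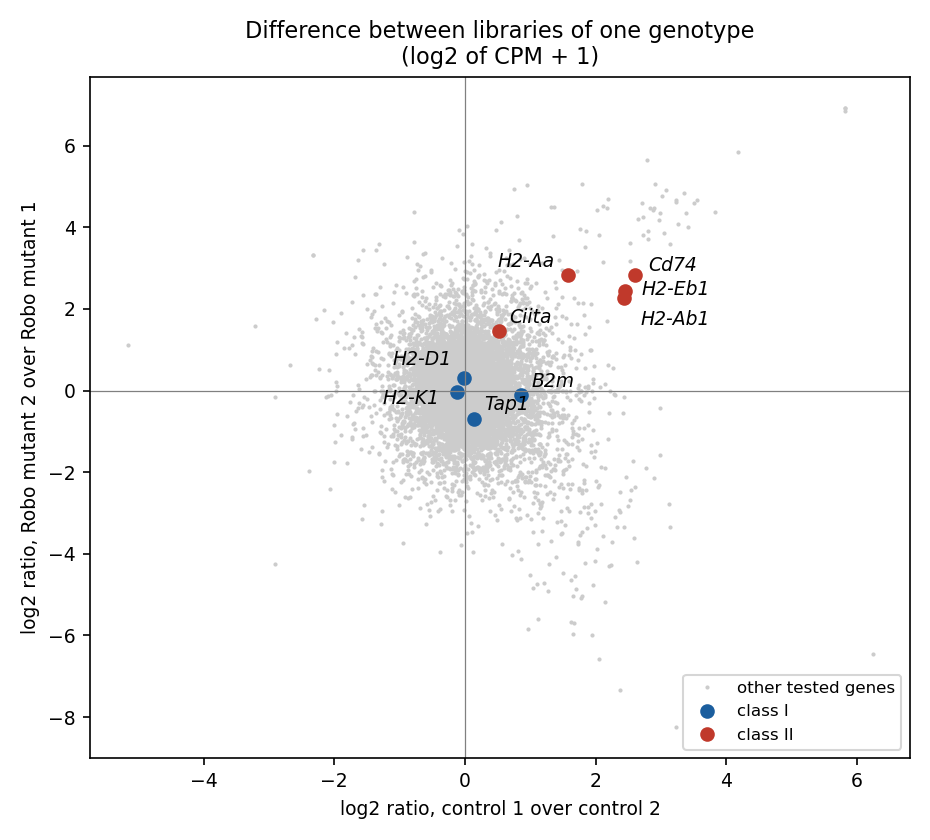
Difference between the 2 libraries of each genotype for all 16517 tested genes, as log2 ratios of CPM + 1: control 1 over control 2 across, Robo mutant 2 over Robo mutant 1 up. Cd74, H2-Aa, H2-Ab1 and H2-Eb1 lie at 1.58 or more across and 2.26 or more up, away from the class I genes near the centre.

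The class II chains differed between libraries of 1 genotype more than most genes did. On log2(CPM + 1), the ratio of control 1 to control 2 was 2.61 for Cd74, 2.44 for H2-Ab1, 2.45 for H2-Eb1 and 1.58 for H2-Aa, beside a median size of 0.22 over all genes tested. The ratio of Robo mutant 2 to Robo mutant 1 was 2.83, 2.26, 2.44 and 2.82 in the same order, beside a median of 0.37. These directions were chosen after the values were seen. Both ratios exceeded 1, that is 2-fold, in 117 of 16517 genes (0.708%) and in 19 of the 4485 genes (0.424%) with a mean between 5.32 and 26.9 CPM, the range of the 4 chains, which are among the 19. For H2-K1 the ratios were -0.12 and -0.03, and for H2-D1 they were -0.02 and 0.31.

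**Figure D3:**
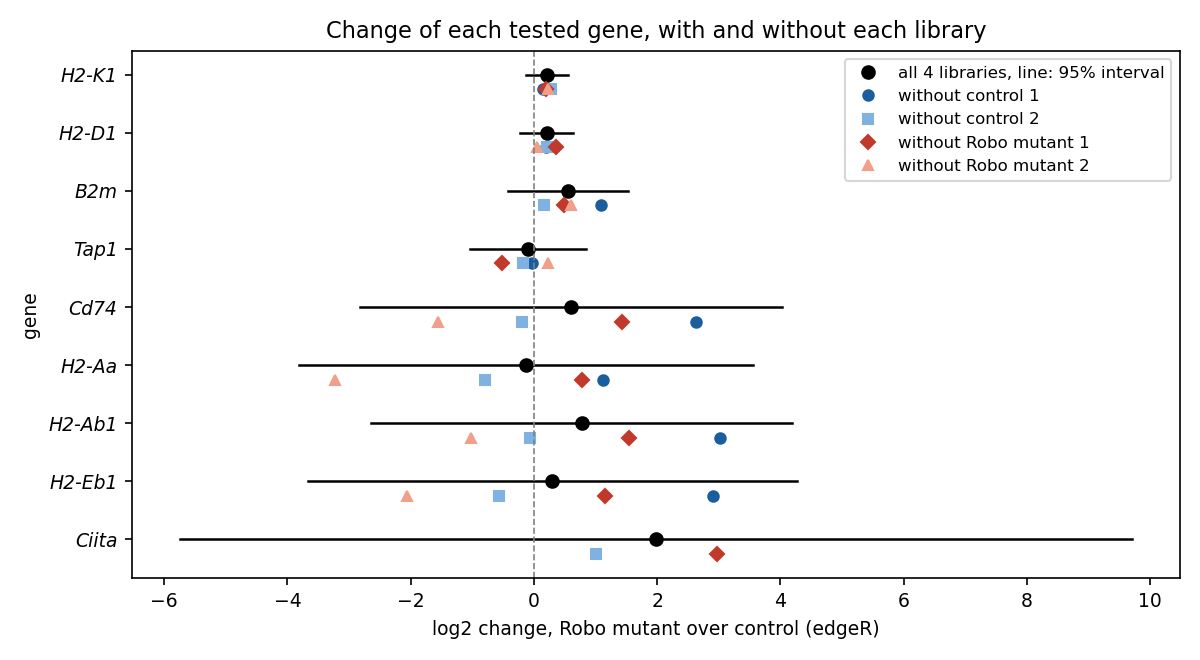
Log2 change of each of the 9 tested genes, Robo mutant over control, by edgeR: black points with 95% intervals use all 4 libraries, and coloured points above or below each row leave out 1 library. H2-K1 and H2-D1 stay between 0.05 and 0.35 whichever library is left out, while Cd74 runs from -1.56 to 2.62.

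Leaving out single libraries turned the sign of every class II chain. Without Robo mutant 2 the log2 changes were -1.56 for Cd74, -3.24 for H2-Aa, -1.02 for H2-Ab1 and -2.06 for H2-Eb1, and without control 1 they were 2.62, 1.12, 3.02 and 2.90. None passed in either case, and over all alternatives run the lowest adjusted p of the 4 chains was 0.210 (H2-Aa). Across the class II genes the median log2 change was 0.61, and across the 4 tested class I genes it was 0.21, beside -0.013 over all genes tested. Of the 9 tested members 7 had a positive log2 change, beside 48.7% of all genes.

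Markers of other cells were compared with the class II sum, which was 68.5 and 10.1 CPM in control 1 and control 2 and 12.4 and 101 CPM in Robo mutant 1 and Robo mutant 2. The macrophage and myeloid list summed to 69.3 and 32.2 CPM in the controls and to 99.9 and 94.0 CPM in the mutants, with all 15 markers detected in at least 1 library. The sum was therefore as high in Robo mutant 1, where class II genes were low, as in Robo mutant 2. Single markers differed in this: Lyz2, Cd68, C1qa and Spi1, 4 of 14 tested, were higher in control 1 and Robo mutant 2 than in both other libraries, as were 14.8% of all genes tested. Spi1, a myeloid transcription factor gene, was at 1.36, 0.294, 0.540 and 2.31 CPM in control 1, control 2, Robo mutant 1 and Robo mutant 2, the library order of Cd74. It was named after its values were seen. Other markers were highest in Robo mutant 1, such as Adgre1 at 2.15, 0.712, 4.96 and 1.32 CPM. Cx3cr1 was another, at 4.47, 1.47, 11.2 and 3.32 CPM in the same order of libraries. All 14 tested markers of the list had a positive log2 change, beside 48.7% of all genes tested, with a median of 1.299. Both mutant libraries lay above both controls for 6 of them, beside 16.1% of all genes tested. None passed in edgeR and 1 did in DESeq2, which called 0.914% of all genes tested. That 1 was Itgam, named after its values were seen, with 0 counts in both controls and 170 and 81 in Robo mutant 1 and Robo mutant 2. It passed the filter only through the mutant libraries, so the filter fixed its direction and its place among the 6. The part of macrophages and myeloid cells in the class I changes was not tested. The most abundant marker C1qa, a complement subunit gene of macrophages, was at 17.9, 15.4, 17.6 and 22.9 CPM in control 1, control 2, Robo mutant 1 and Robo mutant 2.

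The dendritic list summed to 10.1, 6.43, 10.9 and 8.12 CPM in the same order of libraries. Of its 10 markers, Clec9a and Cd209a had 0 counts in every library, while Zbtb46 and Irf8 were detected in every library. Irf8, the most abundant member of the list, was at 3.07, 1.94, 4.10 and 1.21 CPM. Of 5 tested dendritic markers, 2 were higher in control 1 and Robo mutant 2 than elsewhere, beside 14.8% of all genes tested. They were the integrin gene Itgax and the costimulator gene Cd86, named after their values were seen. Irf8 and Zbtb46, a transcription factor gene at 1.71, 2.16, 3.48 and 0.836 CPM, were instead highest in Robo mutant 1 and lowest in Robo mutant 2. Itgax was at 3.93, 0.883, 0 and 3.08 CPM, and Cd86 had 18, 0, 0 and 66 counts. Cd86 passed the filter only through control 1 and Robo mutant 2, so the filter fixed its pattern.

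Lymphocyte markers were few. The B lymphocyte list summed to 14.1, 10.8, 5.96 and 17.1 CPM, mostly Cd79a, at 11.5, 9.82, 5.96 and 16.1 CPM. Both tested markers of that list, Cd79a and Cd22, were higher in control 1 and Robo mutant 2, Cd22 by little over control 2 (1.11, 1.01, 0 and 1.01 CPM). T and NK markers summed to 6.52, 0.221, 5.98 and 1.45 CPM, with Cd8a, Ncr1 and Nkg7 at 0 everywhere, and Cd4, the most abundant, was at 2.57, 0, 1.32 and 1.45 CPM and was the 1 of 4 tested with that pattern. That pattern held for 14.8% of all genes tested. Endothelial markers, whose cells also present antigen, summed to 9.26, 21.3, 6.04 and 6.53 CPM and were highest in control 2.

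Acinar markers took the same library order as the class II sum, at 4895, 509, 2315 and 44540 CPM in control 1, control 2, Robo mutant 1 and Robo mutant 2. That order, Robo mutant 2 above control 1 above Robo mutant 1 above control 2, held for 539 of 16517 tested genes (3.26%). The sum of the alpha-cell markers took this order too, at 23830, 11930, 19320 and 24190 CPM. Among all genes tested, 14.8% had control 1 and Robo mutant 2 above the other libraries. So had 4 of 7 tested alpha-cell markers and 11 of 12 acinar ones. Among the acinar ones, Ptf1a reached 10 counts only in control 1 and Robo mutant 2, so the filter fixed its pattern. Stromal markers ran otherwise, at 2272, 677, 934 and 14.7 CPM, as did delta-cell markers at 1063, 981, 2506 and 1289 CPM, and duct markers at 1193, 1204, 1351 and 1925 CPM. The part of any of these cells in the class II levels was not tested.

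**Figure D4:**
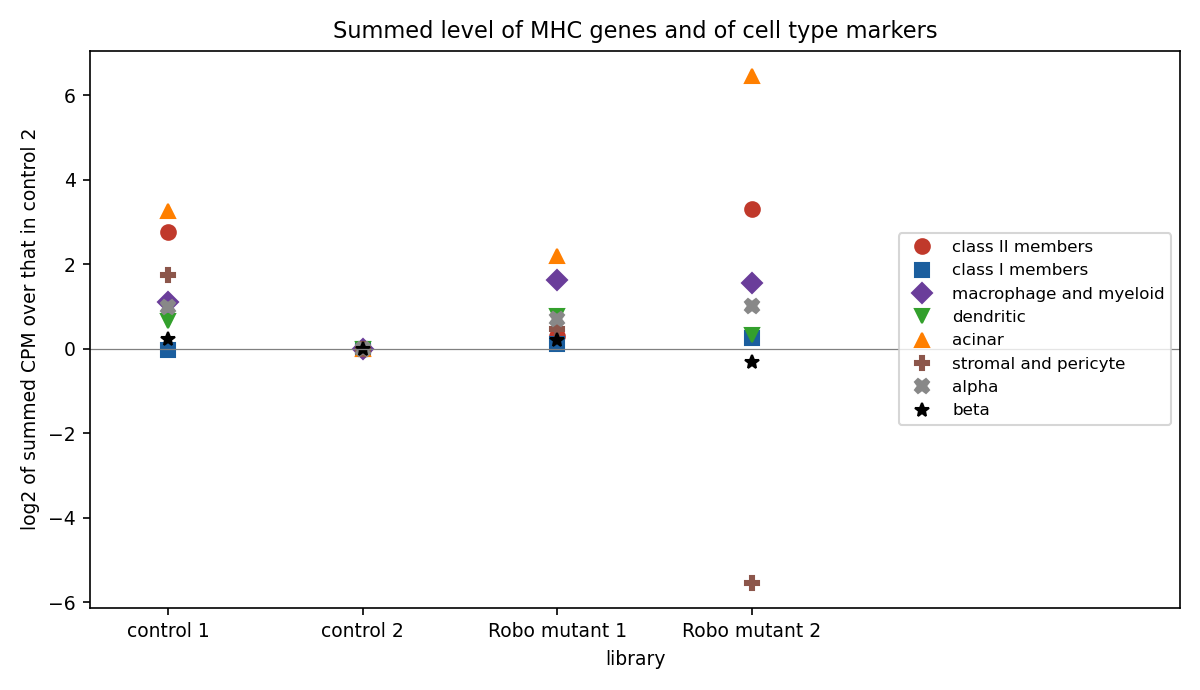
Summed CPM of the class I and class II genes and of marker lists in each library, as log2 of the ratio to control 2, which is at 0. Class II genes and acinar markers are high in control 1 and Robo mutant 2, and the myeloid markers are as high in Robo mutant 1 as in Robo mutant 2. The class I genes sum to 766 and 786 CPM in the controls and to 854 and 943 CPM in the mutants.

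Beyond the 10 genes, 17 other class I heavy chain genes were matched and 12 tested, of which 9 had a positive log2 change and 3 a negative one, with a median of 0.40. None passed in edgeR or DESeq2. H2-Q2, the most abundant of these, was at 106 and 120 CPM in the controls and 138 and 121 CPM in the mutants (log2 change 0.20 ± 0.14, SE). H2-T23, whose product Qa-1 is a ligand of NK cell receptors, was at 30.7 and 27.3 CPM in the controls and 32.2 and 49.4 CPM in the mutants (0.49 ± 0.26), and H2-Q4 at 0.81 to 2.31 CPM had a log2 change of 0.88 ± 0.80. Both mutant libraries lay above both controls for 4 of the 12 and below for 1, beside 16.1% and 20.4% of all genes tested.

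Peptide supply and loading genes of class I showed no common direction. All 15 were tested, 8 had a positive and 7 a negative log2 change, the median was 0.01 and 0 passed in edgeR or DESeq2. Tap2, the partner of Tap1, was at 31.6 and 37.1 CPM in the controls and 43.1 and 42.8 CPM in the mutants (log2 change 0.32 ± 0.16, SE). The chaperone gene Canx was at 806 and 840 against 660 and 715 CPM (-0.26 ± 0.14), and the immunoproteasome gene Psmb9 at 11.5 and 8.64 against 6.30 and 7.65 CPM (-0.53 ± 0.36). Pdia3, the most abundant, had a log2 change of -0.15 ± 0.23.

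Of 12 matched genes for other class II chains and loading, 8 were tested, 5 with a positive and 3 with a negative log2 change, a median of 0.10 and 0 passing in edgeR or DESeq2. H2-DMa, a chain of the peptide editor, was at 6.16 and 3.29 CPM in the controls and 1.14 and 3.54 CPM in the mutants (log2 change -1.01 ± 0.80, SE). It was higher in control 1 and Robo mutant 2 than in the other libraries, as were H2-DMb2, H2-Oa and the proteases Ctss and Lgmn, 5 of the 8 tested, beside the 14.8% of all genes tested. H2-DMb2, whose product pairs with that of H2-DMa, counted 121 in control 1 and 122 in Robo mutant 2, against 0 in control 2 and 1 in Robo mutant 1. H2-Oa counted 23 in control 1, 2 in control 2, 0 in Robo mutant 1 and 26 in Robo mutant 2. H2-DMb2 and H2-Oa passed the filter only through control 1 and Robo mutant 2. The filter therefore fixed their pattern and their place among the 5. Ifi30, a lysosomal reductase gene, and March8, a ubiquitin ligase gene, had log2 changes of 0.23 ± 0.22 and -0.05 ± 0.14.

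The factors of the promoter module lay on both sides. Of 13 genes tested, 7 had a positive and 6 a negative log2 change, with a median of 0.04, and 0 passed in edgeR or DESeq2. Both mutant libraries lay above both controls for 6 and below for 2, beside 16.1% and 20.4% of all genes tested. By edgeR 3 of the 13 had an unadjusted p under 0.05, beside 6.21% of all genes tested. The 3 with an unadjusted p under 0.05 were Creb1, at 42.8 and 41.9 CPM in the controls and 26.0 and 23.8 CPM in the mutants, Rfx5, at 28.7 and 20.8 against 14.1 and 14.4 CPM, and Rfxank, at 9.34 and 8.74 against 20.0 and 13.4 CPM. Rfx5 and Rfxank encode subunits of 1 complex, and their log2 changes were -0.79 ± 0.26 and 0.89 ± 0.32 (SE, edgeR adjusted p = 0.734 and 0.795). That of Creb1 was -0.77 ± 0.16 (adjusted p = 0.680).

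Of 13 tested genes of interferon signalling, 8 had a positive and 5 a negative log2 change, with a median of 0.26, and 0 passed in edgeR or DESeq2. Irf1, an interferon-induced activator of class I genes that is also on the list of promoter factors, was at 207 and 67.6 CPM in the controls and 207 and 379 CPM in the mutants (log2 change 1.10 ± 0.62, SE, adjusted p = 0.922). Control 2 was its lowest library, as for B2m, and control 1 and Robo mutant 1 were level. The receptor genes Ifngr1 and Ifnar2 had log2 changes of 0.51 ± 0.22 and 0.61 ± 0.31, and the kinase gene Jak1, the most abundant, one of -0.12 ± 0.21.

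**Figure D5:**
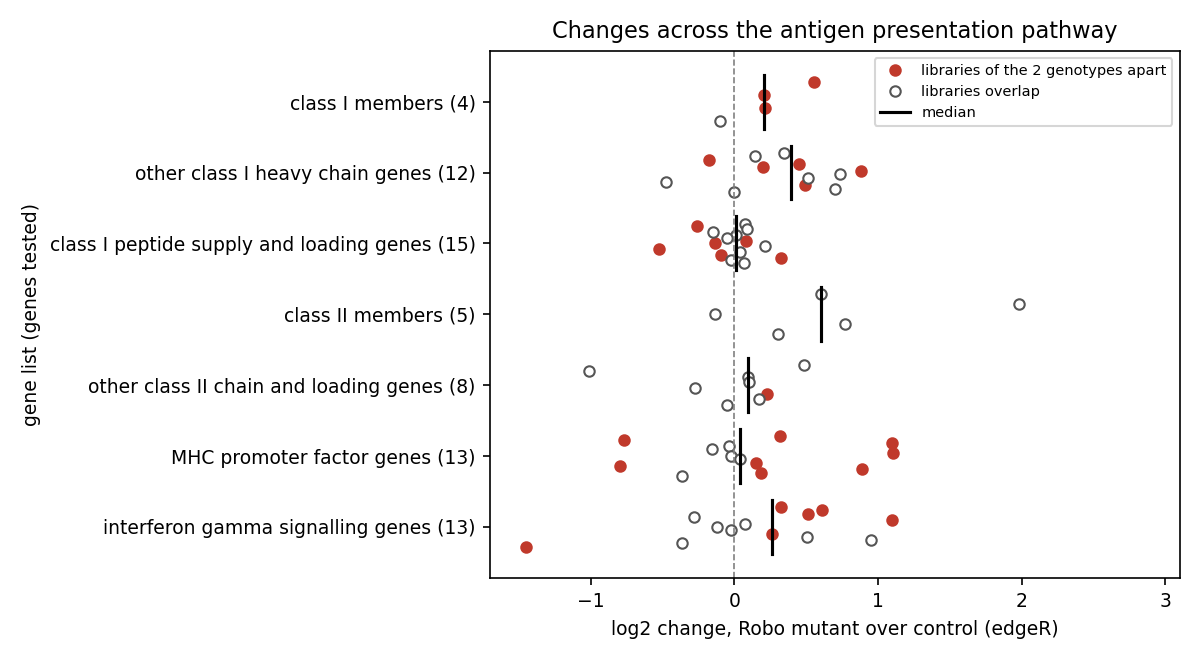
Log2 change, Robo mutant over control, of every tested gene in the 2 groups of members and in 5 further lists of the pathway, with the median of each as a black bar. Filled points have both mutant libraries on 1 side of both controls, open points overlap, and no point passed the test in edgeR.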

How the data were processed

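Sorted β cells were profiled by RNA sequencing in 4 libraries, 2 per genotype. The authors deposited gene-level expected counts in whole numbers. The submitters' processing notes name RSEM 1.3.0, STAR 2.5.3a, edgeR 3.16.5 and bcl2fastq 2.20.0.422 with the build GRCm38, but neither their roles nor an annotation release. Per the labels' protocols libraries came from SMART-Seq v4 and Nextera XT kits, which do not mark strand. The table's name calls its values normalized, yet column totals differ, so the deposited values were treated as estimated counts. Had they been rescaled, column totals would not be depths, and intervals from counting would hold only roughly.

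Testing covered genes that reached 10 counts in 2 or more libraries, with edgeR 4.0.16 in R 4.3.3 (TMM factors, glmQLFit and glmQLFTest, two-sided, Benjamini-Hochberg over 16517 genes, threshold 0.05), with DESeq2 1.42.0 and limma 3.58.1 as alternatives, each tested on simulated data. The simulation does not show how well these tools do with the spread between the libraries of this study. CPM used TMM-scaled totals. Merged exons, positions, overlaps and transcripts came from GENCODE M21 on the same build. Promoters came from RefSeq. Where a symbol had several rows, the row with most counts was used. Named genes were the 10 members, Robo1 and Robo2, the 3 of smallest p (mean of at least 1 CPM) and the most abundant of each pathway list, and the most abundant of each marker list. The members and lists were chosen with earlier results of these data known.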

Additional observations from a re-analysis of the deposited data

How the results depend on the processing

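With 2 libraries a genotype, 0 of the members passed in edgeR or DESeq2, or in any other alternative run (other size factors, no filter, a stricter filter, limma, or without 1 library), where adjusted p ran from 0.210 to 1. Over all genes, 0 were called in edgeR, 151 by DESeq2, and without 1 library 0 to 1, the call coming without Robo mutant 2. The median log2 change of the class II genes, 0.61, ran from -1.81 without Robo mutant 2 to 2.76 without control 1; that of the class I genes kept its sign. In 62 comparisons of a member under other settings than leaving out a library, 0 changed sign. Of 34 with 1 library left out, 9 did. Without 1 library the log2 changes ran from -0.52 to 0.23 for Tap1, from -1.56 to 2.62 for Cd74, from -3.24 to 1.12 for H2-Aa, from -1.02 to 3.02 for H2-Ab1 and from -2.06 to 2.90 for H2-Eb1. Ciita could not be tested without control 1, without Robo mutant 2 or with a minimum of 50 counts. H2-K1, H2-D1 and B2m stayed positive in all. The cause was not tested. Depth limits Ciita. Whether reads of Nlrc5, at 0 counts, could be counted is not known.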

Other observations

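Some genes of antigen presentation were found in 1 library or missing from 1, and they are named after their values were seen. Mr1, which encodes the class I-like molecule that shows metabolites to MAIT cells, counted 340 in control 1, 311 in control 2, 1 in Robo mutant 1 and 669 in Robo mutant 2. H2-M2 had 130 counts and March1, a ubiquitin ligase gene that lowers class II at the surface, 68 counts in Robo mutant 2, and both had 0 elsewhere. Ifng, the interferon gamma gene, had 98 counts in Robo mutant 1 and 0 elsewhere. Xcr1, a receptor gene of cross-presenting dendritic cells, had 147 counts in Robo mutant 1, 3 in control 1 and 0 in the others, while class II genes were low in Robo mutant 1. Over the whole table, genes with at least 50 counts in 1 library and 0 in the other 3 numbered 19 in control 1, 32 in control 2, 41 in Robo mutant 1 and 34 in Robo mutant 2.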
